A study of Mus musculus with 4 samples.

Results

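The Ly6 family genes described here were Ly6a (the gene of Sca-1), Ly6e, Ly6c1, Ly6c2, Ly6g and Ly6d, 6 of the 32285 gene features in the deposited matrices. They were chosen by gene symbol, and the antibodies Sca1 and Gr1, 2 of 15 antibody features, were read beside them. The material was mouse bone marrow sorted for Kit and for the CD45.2 form of CD45, taken 10 weeks after a transplantation. Gene and antibody counts came from the same single cells. Each of 4 groups had 1 library: a control, an Mll3 deletion, an Mll4 deletion and a deletion of both (Mll3/4). Mll3 and Mll4 are histone methyltransferases encoded by Kmt2c and Kmt2d. The labels share the sort and the time in all 4 groups. The mouse strain, the Cre driver, the deleted exons, the recipients and the number of donor animals are not given in the sources used here.

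Ly6 proteins are small cell-surface proteins held in the membrane by a GPI anchor, and most of the mouse genes lie side by side on chromosome 15. Several are the antigens by which marrow cells are sorted. Sca-1 marks stem and multipotent cells, Ly6C marks monocytes and the granulocyte lineage, Ly6G marks neutrophils, and Ly6D marks lymphoid progenitors as they turn to the B lineage. The antibody clone usually called Gr1 binds Ly6G and, more weakly, Ly6C.

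In GENCODE M21 (GRCm38) the 6 genes, all protein-coding, span 397071 bases of chromosome 15. Ly6d lies at 74762056 to 74763620 on the minus strand and Ly6e at 74955051 to 74959905 on the plus strand. Ly6a (74994877 to 74998031), Ly6c1 (75044018 to 75048830) and Ly6c2 (75108158 to 75111970) follow on the minus strand. Ly6g, at 75155240 to 75159126 on the plus strand, closes the row. Ly6c1 and Ly6c2 are separated by 59327 bases and are near-copies: the last 500 bases of their longest transcripts were identical at 98.2% of aligned positions.

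After filtering, 7146 control, 5860 Mll3-labelled, 5350 Mll4-labelled and 6917 Mll3/4-labelled cells were kept, with median depths of 5142 to 16964 gene UMIs (counted molecules) per cell. Kmt2c stood at 47.9, 27.2, 59.2 and 34.8 CPM (counts per 1000000 gene UMIs) in that order, and Kmt2d at 25.8, 21.6, 25 and 24.8 CPM. The Kmt2d intervals of the libraries labelled with an Mll4 deletion overlapped that of control, and these 3′ counts need not cover the deleted part. The libraries are therefore named by their labels below. Xist was 0.519 CPM in the Mll4-labelled library and 955 to 1839 CPM in the other libraries, so that library also differed in this marker of female cells. Kit, the sort marker, was counted at 105 to 190 CPM and Ptprc (CD45) at 66.3 to 216 CPM over the 4 libraries. Any pair of libraries shared 9 to 24 cell barcodes. With 1 library per group there is no test. The 95% intervals are exact and hold the error of counting alone, and a difference is one between single libraries. A gene is called higher or lower where it differed at least 2-fold after adding 1 CPM to both values, with at least 20 counts in either library. Cells were clustered without the 6 genes and without antibodies, and classes carry "-like" because they were named from marker genes.

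Over all kept cells every Ly6 gene differed between the Mll3/4-labelled library and control. Ly6a was 7.85 CPM in control, 7.12 in the Mll3-labelled, 6.96 in the Mll4-labelled and 28.7 in the Mll3/4-labelled library. Ly6e, the broadly expressed member, was 338, 310, 434 and 999 CPM in the same order. Ly6c1 was 0.0911, 0.140, 0.0305 and 101 CPM. These 3 genes were highest in the Mll3/4-labelled library. Ly6c2 was 351, 293, 471 and 16.3 CPM. Ly6g was 33.7, 27.5, 72.9 and 1.02 CPM. Both were lowest there. Ly6d was 6.17, 14.9, 1.43 and 187 CPM, highest in the Mll3/4-labelled and lowest in the Mll4-labelled library. By the call rule 6 of 6 members passed in the Mll3/4-labelled library, where 23.6% of 15158 genes measured passed in either direction. Of these, 4 members were higher (12% of genes) and 2 lower (11.7% of genes). In the Mll4-labelled library Ly6g was higher and Ly6d lower, 2 of 5 measured members, against 8.64% of genes (5.74% higher, 2.91% lower). In the Mll3-labelled library Ly6d alone was higher, 1 of 5, against 0.667% of genes in either direction and 0.199% higher, and 1471 of its 2027 counts there lay in mature B-like cells.

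These totals mix level and cell makeup. Of the Mll3/4-labelled cells 98.7% were B-cell progenitor-like, of control cells 6.59%, and for neutrophil-like cells the shares were 0.347% and 24.9%. Within classes, 0 of 29 pairs of a class and a measured member passed in the Mll3-labelled library over 10 classes or clusters, where 1.37% of all pairs of a class and a gene passed. In the Mll4-labelled library 5 of 29 passed, where 10% of all pairs did: 2 were higher (6.18% of all pairs) and 3 lower (3.83%). In the Mll3/4-labelled library only the B-cell progenitor-like class had 50 cells in both libraries. There 3 of 5 measured members passed, against 16.8% of genes: Ly6c1 and Ly6a were higher (9.45% of genes) and Ly6c2 was lower (7.39%).

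**Figure D1:**
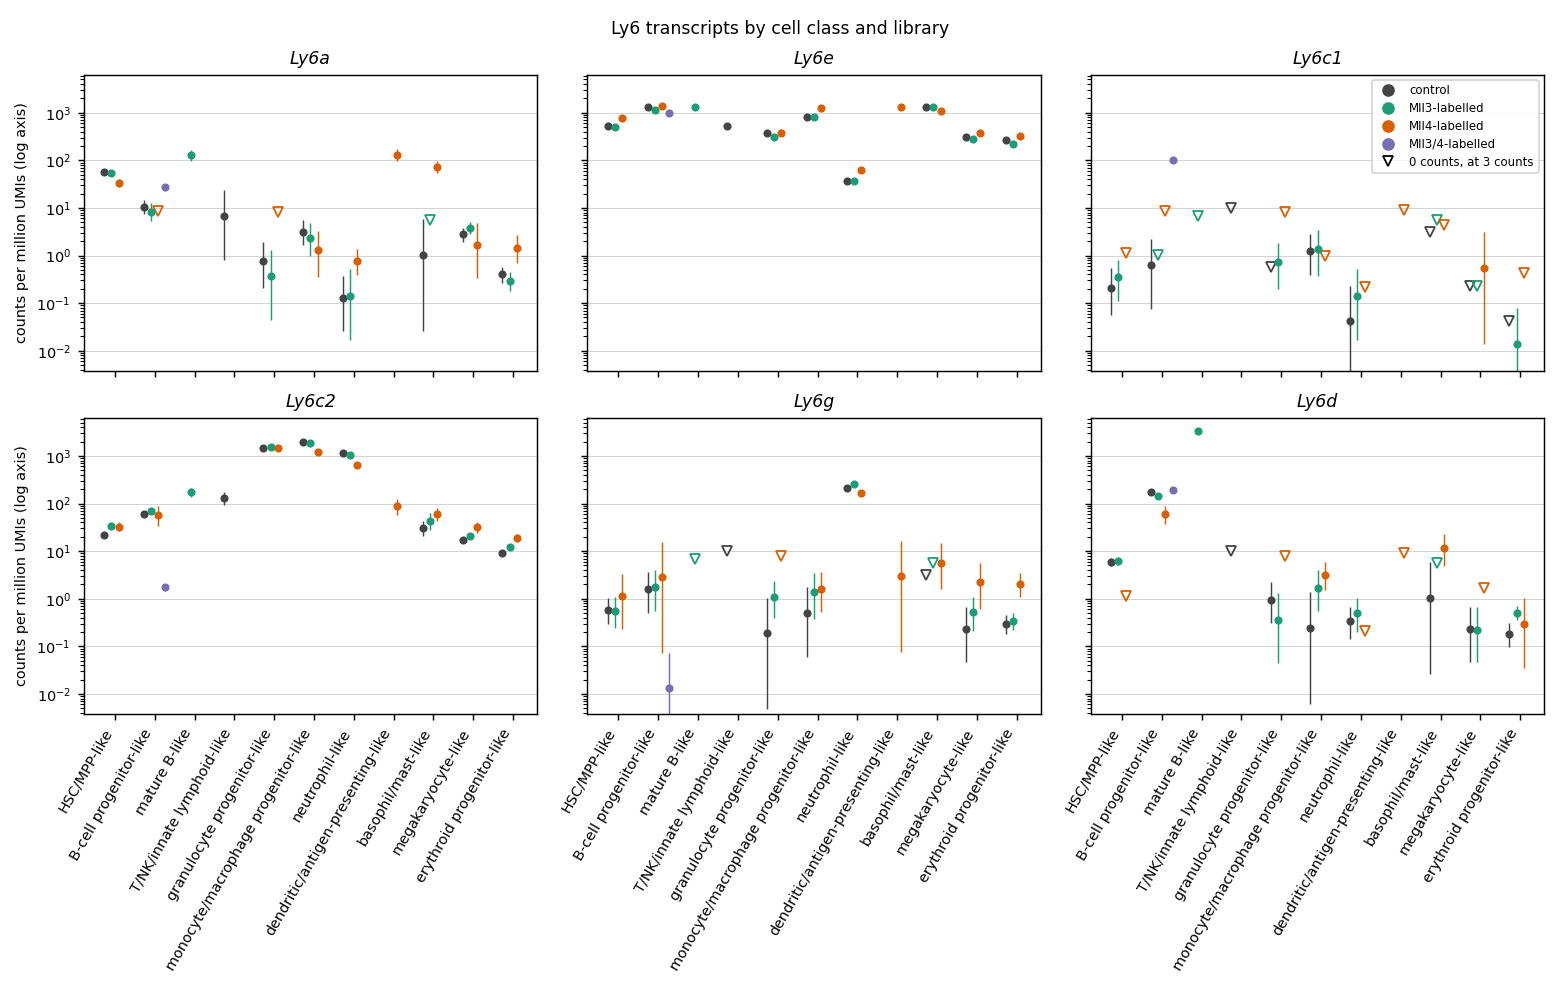
Level of each Ly6 gene (CPM, log axis) in each cell class with at least 50 cells, by library; bars are exact 95% counting intervals and open triangles stand at 3 counts where 0 were seen. Ly6g stands out in neutrophil-like cells, Ly6c2 in the myeloid classes, Ly6d in the B lineage, Ly6e is broad, and Ly6c1 reaches 103 CPM only in the Mll3/4-labelled B-cell progenitor-like cells.

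Ly6c1 was the member with the greatest difference. In B-cell progenitor-like cells 2 counts were seen in 471 control cells (0.629 CPM, 95% interval 0.0761 to 2.27), 0 in 369 Mll3-labelled cells, 0 in 143 Mll4-labelled cells and 7841 in 6830 Mll3/4-labelled cells (103 CPM, 101 to 106). The Mll3/4-labelled library was high and the other 3 were at or near 0. A count of 0 allows up to 1.04 CPM in the Mll3-labelled and 8.42 CPM in the Mll4-labelled cells. The Mll3/4-labelled level was 164-fold that of control (45.5 to 1358), a wide interval set by the 2 control counts. In no other class of any library with at least 50 cells was Ly6c1 above 1.37 CPM.

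Within the Mll3/4-labelled class Ly6c1 was uneven. A transcript was seen in 24.2% of cells, 8.45% of cells held 5 or more, and the 10% of cells with most held 79.7% of the counts. Control, at 0.425% of cells with a transcript, gives the background for such shares at a lower depth. At an equal 2000 UMIs per cell the shares were 13.1% in the Mll3/4-labelled library and 0 in control. The class consisted almost wholly of clusters 0, 1, 6, 21 and 22 in the Mll3/4-labelled library and of clusters 16 and 20 in control, so library and cluster cannot be told apart. All 9 B-cell progenitor markers were counted in both, with sums of 14402 CPM in control and 12128 CPM among Mll3/4-labelled cells. Kit was 84.9 CPM in the control class and 192 CPM in the Mll3/4-labelled class, and the medians of its antibody CD117 were 55 and 256 counts per cell. The part of this in the Ly6 differences of the class was not tested. Ly6c1 was 177 CPM in cluster 0, 73.7 in cluster 1, 58.9 in cluster 6, 74.4 in cluster 21 and 63.4 in cluster 22. In the 24 neutrophil-like cells of the same library 0 counts were seen, which allows up to 5.95 CPM.

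Ly6c2, the near-copy, was 59.7 CPM (51.5 to 68.8) in control B-cell progenitor-like cells, 68.4 in the Mll3-labelled, 56.1 in the Mll4-labelled and 1.74 (1.46 to 2.06) in the Mll3/4-labelled cells. The first 3 libraries lay together and the last was 34.3-fold lower (27.3 to 43.2) than control. Neutrophil markers were also lower in the Mll3/4-labelled class. The 10 genes of that list summed to 2527 CPM in the control class, with only Mmp8 at 0, and to 81.1 CPM in the Mll3/4-labelled class, with none at 0. Per 1000 counts of that list, Ly6c2 had 23.6 counts in the control class and 21.5 in the Mll3/4-labelled class, nearly in step in that comparison. In the other 2 libraries it was not in step. The list summed to 1847 CPM in the Mll3-labelled and 6698 CPM in the Mll4-labelled class, and the quotient was 37.0 and 8.38. The same quotient was 13.6 in control erythroid progenitor-like cells, 17.3 in HSC/MPP-like cells and 3.04 in neutrophil-like cells. How much of the Ly6c2 count in B-cell progenitor-like cells came from RNA of other cells was not tested.

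Ly6c1 as a share of both Ly6c counts was 1.04% (0.126 to 3.71) in the control class and 98.3% (98.0 to 98.6) in the Mll3/4-labelled class. In the few myeloid cells of the Mll3/4-labelled library the order was the reverse: 392 Ly6c2 and 0 Ly6c1 counts in 24 neutrophil-like cells, and 245 and 0 in 4 monocyte/macrophage progenitor-like cells. The 19 T/NK/innate lymphoid-like cells had 41 Ly6c2 and 0 Ly6c1 counts. Counting kept the 2 genes apart in these libraries. All 90-base stretches in the last 500 bases of their annotated transcripts were compared with transcripts of the other members, Ly6f, Ly6i and Ly6k only. Of these stretches, 86.2% of those of Ly6c1 and 80.7% of those of Ly6c2 occurred in no other gene searched. How reads that fit both were counted is not given in the sources used here, so small values of either gene beside a high value of the other are uncertain.

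**Figure D2:**
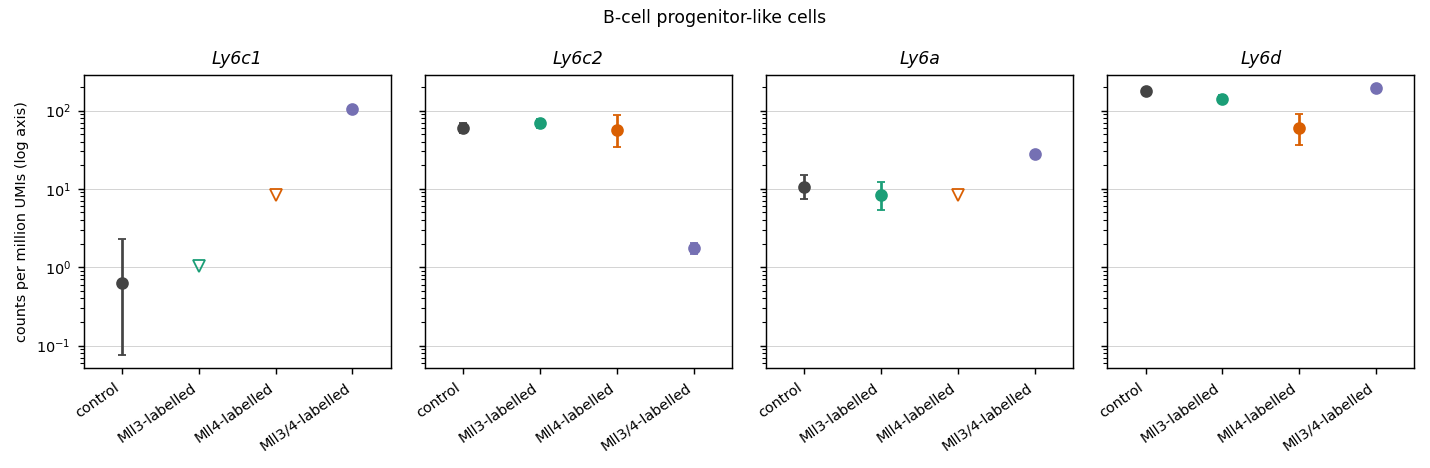
Ly6c1, Ly6c2, Ly6a and Ly6d in B-cell progenitor-like cells of the 4 libraries (CPM, log axis), with exact 95% counting intervals and open triangles at 3 counts where 0 were seen. Ly6c1 is at 103 CPM in the Mll3/4-labelled library and at most 0.629 CPM elsewhere, and Ly6c2 runs from 56.1 to 68.4 CPM in 3 libraries and is 1.74 CPM in the Mll3/4-labelled library.

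The promoters of the pair are shown because neighbouring near-copies differed in opposite directions, with Ly6g, which was highest in neutrophil-like cells, beside them. RefSeq (GRCm38.p6) gave a promoter, 250 bases before to 50 after the start, for 3 of the 6 members: Ly6c1 at chr15:75048788-75049087, minus strand, Ly6c2 at chr15:75111922-75112221, minus strand, and Ly6g at chr15:75155011-75155310, plus strand. Capitals mark CAGCTG, an E-box of the kind bound by E proteins, and GAGGAAGT, letters of the kind bound by the myeloid and B-lineage factor PU.1, both searched on both strands.
Ly6c1: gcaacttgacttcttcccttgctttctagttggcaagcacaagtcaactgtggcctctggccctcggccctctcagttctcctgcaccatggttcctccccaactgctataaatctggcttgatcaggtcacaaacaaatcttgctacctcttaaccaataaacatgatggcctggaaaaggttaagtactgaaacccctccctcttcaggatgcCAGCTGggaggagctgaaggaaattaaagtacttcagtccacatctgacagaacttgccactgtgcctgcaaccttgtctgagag
Ly6c2: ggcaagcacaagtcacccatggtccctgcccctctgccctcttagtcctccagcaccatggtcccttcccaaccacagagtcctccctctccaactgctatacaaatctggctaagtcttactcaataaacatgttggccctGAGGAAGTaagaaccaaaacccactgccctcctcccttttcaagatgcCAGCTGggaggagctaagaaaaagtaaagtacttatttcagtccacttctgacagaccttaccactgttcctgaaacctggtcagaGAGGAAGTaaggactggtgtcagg
Ly6g: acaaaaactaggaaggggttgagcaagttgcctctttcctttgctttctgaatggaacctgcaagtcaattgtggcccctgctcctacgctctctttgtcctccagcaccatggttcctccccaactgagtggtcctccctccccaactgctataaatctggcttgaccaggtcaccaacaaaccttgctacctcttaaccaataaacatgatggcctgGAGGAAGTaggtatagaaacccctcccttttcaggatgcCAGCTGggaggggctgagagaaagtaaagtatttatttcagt
All 3 windows held 1 CAGCTG, beginning 35 bases before the start in Ly6c1, 60 before it in Ly6c2 and 8 after it in Ly6g. GAGGAAGT occurred 0 times in this Ly6c1 window, 2 times in that of Ly6c2 and 1 time in that of Ly6g. The window of another annotated Ly6c1 start (chr15:75048614-75048913) held it 1 time, so its absence belongs to the first start only. The letters TTNNGNAA, of the kind bound by C/EBP factors, occurred 0 times in both Ly6c1 windows and 2 times each in the printed Ly6c2 and Ly6g windows. Another annotated Ly6g window (chr15:75155079-75155378) held GAGGAAGT 2 times, TTNNGNAA 1 time and CAGCTG 60 bases before its start. Another Ly6c2 window (chr15:75111888-75112187) held CAGCTG 94 bases before its start. Positions and some counts thus depend on the start chosen. Among 32851 promoters of the same length, 16.3% held CAGCTG, 3.20% GAGGAAGT and 40.7% TTNNGNAA. The printed promoters of Ly6c1 and Ly6c2 were identical at 78.2% of aligned bases. Each was more like that of Ly6g, at 84.0% for Ly6c1 and 82.5% for Ly6c2. These matches are descriptions of letters and not of binding.

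Along the chromosome, 29 annotated genes of the stretch around the family are in the feature list, and 10 had enough counts in B-cell progenitor-like cells to be measured. In the Mll3/4-labelled library Ly6c1, Ly6a and Lynx1 (a relative that acts on nicotinic receptors) were higher than control (9.45% of all genes in the class were) and Ly6c2, Ly6m and the unnamed gene Gm39556 were lower (7.39% were). Ly6d, Ly6e, Ly6k and Them6 were not called. Lynx1 stood at 9.74 CPM in the control class and at 21 CPM in the Mll3/4-labelled class. Along the chromosome the called genes ran Lynx1 higher, Ly6m and Gm39556 lower, Ly6a and Ly6c1 higher and Ly6c2 lower, so neighbours did not all differ in 1 direction. Lynx1, Ly6m and Gm39556 are named here for their place and were picked after their values were seen.

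**Figure D3:**
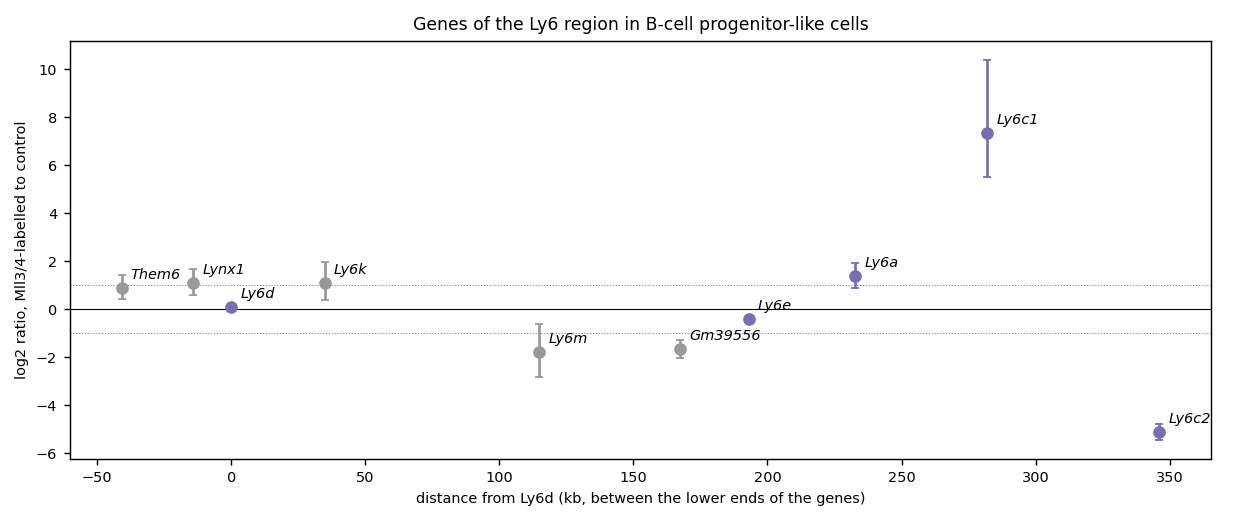
Log2 ratio of the Mll3/4-labelled library to control in B-cell progenitor-like cells for the 10 measured genes of the Ly6 region, against distance from Ly6d; bars are exact 95% counting intervals, dotted lines mark a 2-fold difference, and family members described here are in purple. Ly6c1 lies at 7.36 and its neighbour Ly6c2 at -5.10, with Ly6e and Ly6d near 0.

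Ly6a, which encodes Sca-1, was measured first in the class it is used to sort. In HSC/MPP-like cells, a class of hematopoietic stem cells and multipotent progenitors, it was 55.9 CPM (52.6 to 59.4) in 1287 control cells, 54.2 in 961 Mll3-labelled cells and 33.5 (27.0 to 41.2) in 471 Mll4-labelled cells. Control and the Mll3-labelled library overlapped, and the Mll4-labelled library was 1.67-fold lower (1.34 to 2.09), short of the call. Among cells with the first of 2 hashtags Ly6a was 21.7 CPM (15.2 to 29.99) against 53.2 in control, and among cells with the second 54.5 CPM (40.7 to 71.4) against 60.9, where the intervals overlapped. What the hashtags mark is not given in the sources used here. The Sca1 antibody medians were 44, 65 and 24 counts per cell, highest in the Mll3-labelled and lowest in the Mll4-labelled library. Only 13 HSC/MPP-like cells were found in the Mll3/4-labelled library, with 49 Ly6a counts (186 CPM, 137 to 245). The class splits into clusters 3 and 12, and Ly6a was 75.5 CPM in cluster 3 and 18.9 in cluster 12 of control, 76.3 and 20.7 for the Mll3-labelled cells, and 49.3 and 15.3 for the Mll4-labelled cells.

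Protein and transcript of Sca-1 rose together from cell to cell. Sorted by Sca1 antibody counts (under 16, 16 to 63, 64 to 255, 256 or more; edges chosen after the counts were seen), Ly6a in control HSC/MPP-like cells was 3.65, 26.2, 91.3 and 201 CPM. In the Mll3-labelled cells it was 5.69, 21, 58.4 and 174 CPM, and in the Mll4-labelled cells 2.89, 17.1, 41.3 and 186 CPM. In the bin with most Sca1 the Ly6a intervals of the 3 libraries overlapped. Neighbouring bins did not overlap within a library, except the middle bins of the Mll4-labelled library, with 14 and 23 counts. Spearman's rho between Ly6a and Sca1 was 0.60 over 1287 control cells, 0.57 over 961 Mll3-labelled cells and 0.38 over 471 Mll4-labelled cells, within single libraries whose cells differ in depth. The sum of the other antibodies moved the other way, from a median of 1281 in the lowest to 670 in the highest bin of control. Ly6e went from 620 to 496 CPM over the same bins, and Ly6c2 stayed between 20.4 and 24.1 CPM.

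In B-cell progenitor-like cells Ly6a was 10.7 CPM (7.40 to 14.9) in control, 8.33 in the Mll3-labelled, 0 in the Mll4-labelled and 28.0 (26.8 to 29.2) in the Mll3/4-labelled cells. The last stood 2.62-fold above control (1.87 to 3.79). The 10 HSC/MPP markers summed to 52.2 CPM in the control class and 212 CPM in the Mll3/4-labelled class, with only Procr at 0 in both, and to 60.8 and 84.2 CPM in the Mll3- and Mll4-labelled classes. Their part in the result was not tested. The 0 in the Mll4-labelled library allows up to 8.42 CPM, so that Ly6a there was at least 1.27-fold lower than control, from 34 control counts. It was called lower with Ly6d, 2 of 4 measured members, where 8.52% of genes were called lower. The Ly6a call was lost with cells thinned to 2000 UMIs, with a minimum of 100 counts and at Leiden resolution 0.5. In the Mll3-labelled class 0 of 4 were called, against 2.31%.

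The Ly6a of the Mll3/4-labelled B-cell progenitor-like cells lay in a Sca1-high minority. Cells with 256 or more Sca1 counts were 811 of 6830 (11.9%, 11.1 to 12.7), against 3 of 471 (0.637%, 0.132 to 1.85) in control, 4 of 369 in the Mll3-labelled and 3 of 143 in the Mll4-labelled library. From the lowest to the highest Sca1 bin of the Mll3/4-labelled class Ly6a was 0.770, 2.88, 33.6 and 190 CPM. The top was 247-fold above the bottom (130 to 541). The top value is close to that of the Sca1-high HSC/MPP-like cells of the other libraries.

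Ly6c1 and Ly6d, which the Sca1 antibody was not chosen to read, rose over the same bins. Ly6c1 was 52.0, 74.5, 143 and 278 CPM, 5.34-fold from bottom to top (4.89 to 5.85). Ly6d was 107, 151, 302 and 388 CPM, 3.61-fold (3.38 to 3.86). Ly6e rose less, 898, 983, 1120 and 1173 CPM, and Ly6c2 stayed between 1.49 and 2.65 CPM. In these bins the median sum of the other antibodies was 292, 495, 640 and 599 counts and that of CD117, the antibody to Kit, was 149, 270, 341 and 324, with median depths of 9019 to 10329 UMIs. Their part in the result was not tested. Cells with a Ly6a transcript held Ly6c1 in 44.7% of cases and cells without it in 21.2%. At an equal 2000 UMIs per cell these shares were 33.0% and 12%. For Ly6d beside Ly6a they were 39.4% and 19.6% at that depth.

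**Figure D4:**
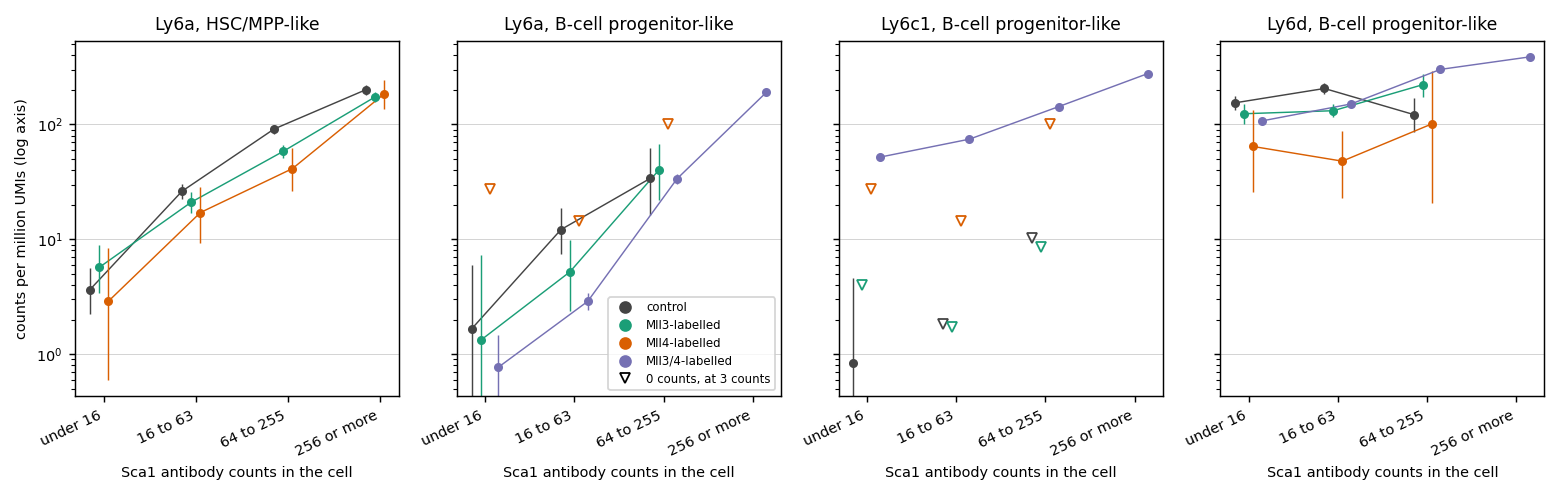
Ly6a in HSC/MPP-like cells and Ly6a, Ly6c1 and Ly6d in B-cell progenitor-like cells (CPM, log axis) by Sca1 antibody counts in the cell, with exact 95% counting intervals and open triangles at 3 counts where 0 were seen; bins under 10 cells are not drawn. Ly6a climbs with Sca1 in each class and library where it was counted, to 201 CPM in control HSC/MPP-like and 190 CPM in Mll3/4-labelled B-cell progenitor-like cells, and Ly6c1 climbs from 52.0 to 278 CPM in the Mll3/4-labelled library.

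Ly6a also appeared in mature lymphoid and antigen-presenting cells. It was 128 CPM (97.1 to 166) in 145 mature B-like cells of the Mll3-labelled library and 132 CPM (95.7 to 177) in 107 dendritic/antigen-presenting-like cells of the Mll4-labelled library, and neither class had 50 cells in control. The Sca1 median was 42 counts in those dendritic/antigen-presenting-like cells and 13 in those mature B-like cells. In basophil/mast-like cells it was 1 count in 93 control cells (1.05 CPM), 0 in 56 Mll3-labelled cells and 50 in 234 Mll4-labelled cells (71.7 CPM, 53.2 to 94.5). That difference was called, 1 of 3 measured members where 10.4% of genes were called higher, and the ratio was 68.4-fold (11.7 to 2753). The counts came from 6.41% of the Mll4-labelled cells, and 19.7% of them were Sca1-positive against 2.15% in control. Markers of dendritic/antigen-presenting cells also moved, from 37.8 to 165 CPM as a sum over 9 genes, 5 of them at 0 in each library. So did the class's own markers, from 4308 to 13087 CPM as a sum over 8 genes. Among other lists, sums rose for HSC/MPP (476 to 711 CPM), neutrophil (1759 to 5581) and monocyte/macrophage progenitor markers (179 to 528). They fell for granulocyte progenitor (3122 to 2540), erythroid progenitor (419 to 231), T/NK/innate lymphoid (449 to 320) and endothelial/stromal markers (91.3 to 74.6). Their part in the result was not tested. Neutrophil-like, granulocyte progenitor-like and erythroid progenitor-like cells had at most 1.44 CPM of Ly6a in any library.

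Ly6d, the B-lineage marker, was highest in mature B-like cells. It was 3310 CPM (3143 to 3484) in the 145 such cells of the Mll3-labelled library and 3777 CPM in 19 of control. In B-cell progenitor-like cells it was 178 CPM (163 to 193) in control, 141 in the Mll3-labelled, 59.0 (36.5 to 90.1) in the Mll4-labelled and 191 (188 to 194) in the Mll3/4-labelled cells. Control and Mll3/4-labelled cells overlapped, and the Mll4-labelled library was 3.01-fold below control (1.95 to 4.90), called lower from 21 counts. The 9 B-cell progenitor markers of that class summed to 14402 CPM in the control class and 9443 CPM in the Mll4-labelled class, and the neutrophil list to 2527 and 6698 CPM. Their part in the result was not tested. In HSC/MPP-like cells Ly6d was 112 counts in 11 of 1287 control cells, 89 counts in 16 of 961 Mll3-labelled cells and 0 in 471 Mll4-labelled cells. By the limit of 3 counts the Mll4-labelled value was at least 5.30-fold below control. That bound takes counts as independent, although the control counts lay in 11 cells. The difference was called, 1 of 4 measured members where 2.81% of genes were called lower. The call was lost with cells thinned to 2000 UMIs. In control, 108 of the 112 counts lay in cells that carried the first hashtag, so that few cells set this value.

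Ly6e, a widely expressed member studied as a restrictor of viral entry, was counted in every class. In B-cell progenitor-like cells it was 1349, 1158, 1412 and 1010 CPM in control, the Mll3-, Mll4- and Mll3/4-labelled libraries. The Mll3/4-labelled library was 1.34-fold below control (1.29 to 1.38) and was not called. Its higher total over all cells of that library thus stood beside a lower level within the class. In basophil/mast-like cells it was 1343, 1346 and 1086 CPM in control, the Mll3- and the Mll4-labelled library. In HSC/MPP-like cells it was 526, 513 and 766 CPM in that order, and in erythroid progenitor-like cells 261, 223 and 328 CPM. Neutrophil-like cells were lowest among the named classes, at 36.7, 36.2 and 61.2 CPM. The Mll4-labelled library was above control in HSC/MPP-like cells by 1.46-fold (1.39 to 1.53) and in neutrophil-like cells by 1.67-fold (1.52 to 1.84), neither called. The median log2 ratio of all genes in the former class was 0.16.

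Ly6g, the neutrophil antigen, kept to neutrophil-like cells. It was 214 CPM (208 to 220) in control, 259 in the Mll3-labelled, 168 (161 to 175) in the Mll4-labelled and 155 (122 to 193) in the 24 cells of the Mll3/4-labelled library. These levels differed by less than the 2-fold of the call. The higher total over all Mll4-labelled cells went with a share of neutrophil-like cells of 50.2%, against 24.9% in control. In every other named class with 50 cells Ly6g was at most 5.74 CPM. Erythroid progenitor-like cells were called higher in the Mll4-labelled library, 2.02 CPM from 14 counts against 0.291 CPM from 21 counts, 1 of 4 measured members where 3.95% of genes were called higher. The neutrophil marker list rose beside it from 670 to 3461 CPM. Per 1000 counts of that list Ly6g was 0.434 in control and 0.584 in the Mll4-labelled library. In neutrophil-like cells this quotient was 0.553 and 0.422. Whether the Ly6g counts in erythroid progenitor-like cells came from RNA of other cells was not tested.

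Ly6c2 was highest in granulocyte, monocyte and neutrophil classes. It was 1484, 1559 and 1444 CPM in granulocyte progenitor-like cells of control, the Mll3- and the Mll4-labelled library. In monocyte/macrophage progenitor-like cells it was 1990, 1838 and 1219 CPM. In neutrophil-like cells it was 1173, 1033 and 643 CPM, with 778 CPM in the 24 Mll3/4-labelled cells. The Mll4-labelled library was below control by 1.63-fold (1.57 to 1.70) in monocyte/macrophage progenitor-like and by 1.82-fold (1.78 to 1.87) in neutrophil-like cells, and neither was called. Erythroid progenitor-like cells, which are not known for the gene, held 9.12, 12.3 and 18.9 CPM, and basophil/mast-like cells 30.4, 43.2 and 60.2 CPM. Whether these counts came from RNA of other cells was not tested. A Ly6c2 transcript was seen in 30.3% of control erythroid progenitor-like cells, which were the deepest, so a share of cells with a transcript says little for this gene.

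On the cell surface, the Sca1 antibody ranked HSC/MPP-like cells above B-cell progenitor-like cells, by their medians over background, in 3 libraries. Neutrophil-like cells, with at most 0.785 CPM of Ly6a in control and the Mll3- and Mll4-labelled libraries, set the Sca1 background at medians of 8, 11 and 11 counts, and at 17.5 in the 24 cells of the Mll3/4-labelled library. HSC/MPP-like medians were 5.50, 5.91 and 2.18 times that background in the first 3 libraries. B-cell progenitor-like medians were 18, 23, 21 and 28 counts, or 2.25, 2.09, 1.91 and 1.60 times it. The median Sca1 of that class was thus no higher over background in the Mll3/4-labelled library than in control, and the difference lay in the upper tail, where 10% of cells exceeded 334 counts against 61 in control. Above the control threshold of 32.5 counts stood 14.2% of all kept control cells, 16.4% of Mll3-labelled, 9.42% of Mll4-labelled and 43.0% of Mll3/4-labelled cells. Among B-cell progenitor-like cells alone the shares were 26.3% (22.4 to 30.6), 31.7%, 24.5% and 43.0% (41.8 to 44.2). Over all kept cells the log2 ratio of the Mll3/4-labelled share to control was 1.60. It was 0.72 with the threshold scaled to the neutrophil-like median, chosen after the data were seen. That median came from 24 cells. Under the other scalings in the closing section the ratio moved in both directions. The part of background in these shares was not tested, and the shares over all kept cells also mix level and cell makeup.

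Gr1 was highest in the class with most Ly6g, though not in the order of Ly6g across libraries. In neutrophil-like cells its median was 499, 520, 547 and 790 counts in the 4 libraries, and the control threshold of 65.3 counts was passed by 99.0% to 100% of them. Among control neutrophil-like cells the median was 621 counts with a Ly6g transcript and 300 without. In monocyte/macrophage progenitor-like cells, where Ly6g was at most 1.60 CPM, 42.0% to 61.9% of cells passed the threshold in the first 3 libraries. Gr1 medians there were 50.5, 92 and 57 counts, not in the order of Ly6c2 at 1990, 1838 and 1219 CPM. From cell to cell within control Gr1 rose with Ly6c2, with Spearman's rho of 0.73 over 190 cells. Gr1 was higher in other Mll4-labelled classes too. Its medians were 42 against 22 counts in control erythroid progenitor-like cells and 53 against 25 in B-cell progenitor-like cells. In the latter class 24.5% of Mll4-labelled cells passed the control threshold, against 3.82% of control cells. The part of this in the monocyte/macrophage progenitor-like values was not tested. Mll3/4-labelled B-cell progenitor-like cells had a Gr1 median of 14 counts against 25 in control, 17 in cells with a Ly6c1 transcript and 14 in cells without. Their many Ly6c1 transcripts thus came with a Gr1 level below that of the control class, in a library with a lower antibody total (median 570 against 1117 counts per cell).

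**Figure D5:**
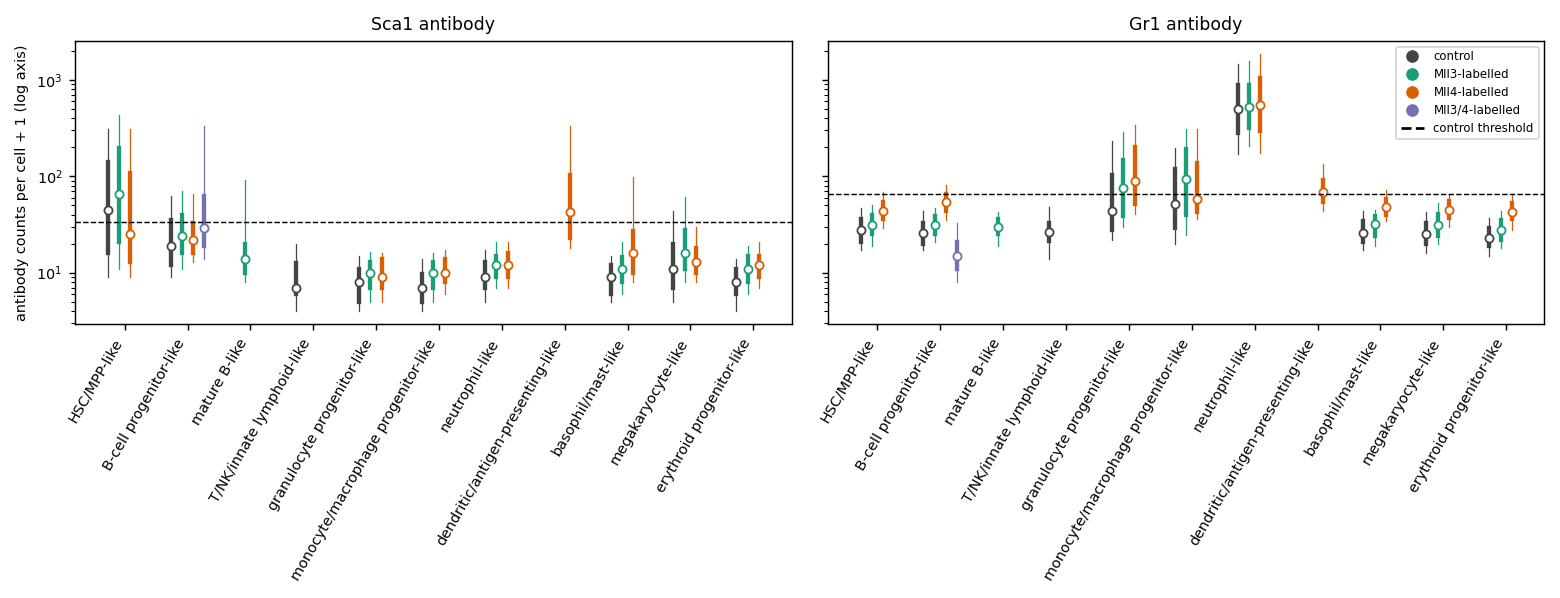
Sca1 and Gr1 antibody counts per cell plus 1 (log axis) by class and library for classes with at least 50 cells: circles are medians, thick bars the middle 50% and thin bars the middle 80% of cells, and the dashed line is the control threshold. Sca1 medians are 24 to 65 in HSC/MPP-like cells and 42 in the Mll4-labelled dendritic/antigen-presenting-like cells, the Mll3/4-labelled B-cell progenitor-like cells have a long upper tail, and Gr1 is highest in neutrophil-like cells.

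Genes with the most similar pattern were named by Pearson's r of log2 CPM over 28 sums, each of 1 class in 1 library with at least 50 cells, among 11296 genes. For Ly6a they were A530040E14Rik (0.83), Trim34a (0.80) and the class II chaperone gene Cd74 (0.78). For Ly6e they were Zfp946 (0.92), Mndal (0.90) and the protease gene Ctsc (0.90). For Ly6c2 they were Slpi, Hp and Mtus1 (0.96, 0.94 and 0.93), for Ly6g Ceacam10, Mmp25 and Ankrd22 (0.95, 0.95 and 0.94), and for Ly6d Ppargc1a, its neighbour Lynx1 and the B-cell receptor gene Cd79a (0.96, 0.95 and 0.94). The sums share libraries, so these are descriptions. Between members, r ran from -0.73 for Ly6e and Ly6g to 0.48 for Ly6a and Ly6d.

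Of 34 other genes of the Ly6/uPAR family on the list, 33 were in the feature list, 26 were under 1 CPM in every library and 5 passed 10 CPM in any. In B-cell progenitor-like cells 6 were measured in the Mll3/4-labelled library, with a median log2 ratio of 0.79 against 0.02 over all genes. Of these, 2 were higher (Lynx1 and Cd59a, an inhibitor of complement, 0.629 to 3.58 CPM) and 2 lower (Ly6m and Pinlyp). Of all genes measured in the class, 9.45% were higher and 7.39% lower. Cd59a rested on 2 control counts against 272. Ly6m (9 and 62) and Pinlyp (15 and 97) likewise reached the minimum of 20 counts only in the Mll3/4-labelled class. Ly6k, near Ly6d, was 0.124 CPM over control cells and 3.28, 2.35 and 10.0 CPM over the other libraries. In erythroid progenitor-like cells 1 count was seen in control, against 3.59 CPM among Mll3-labelled and 4.48 CPM among Mll4-labelled cells. Genes of GPI anchor synthesis, which Ly6 proteins need, were called higher in 4 and lower in 0 of 26 in the Mll3/4-labelled class, with a median log2 ratio of 0.09, where 9.45% of all genes were higher. Examples are Pigw (1.26 to 4.70 CPM, 4 and 357 counts) and Pgap1 (0.943 to 3.81 CPM, 3 and 289 counts). Both reached the minimum of 20 counts only in the Mll3/4-labelled class, with 6830 cells against 471 in control. Interferon-response genes, a program that can induce Ly6a and Ly6e, were called higher in 11 of 20 over all Mll3/4-labelled cells, where 12% of genes were (median log2 ratio 1.04 against -0.01 over all genes). Within the class only Ifit1 was higher and Iigp1 lower, where 9.45% and 7.39% of genes were, with a median of -0.06.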

How the data were processed

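The deposited matrices hold counts of UMIs per gene and per antibody, with no normalization, made from 10x Genomics 3′ version 3.1 libraries. The submitters' processing notes name Cell Ranger 6.1.2 and mm10; the annotation release and the handling of reads that fit several genes are not given in the sources used here. Groups came from the sample titles.

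Barcodes with at least 500 genes, 1000 UMIs and at most 10% mitochondrial UMIs were kept, and the highest Scrublet scores were removed at 0.8% per 1000 deposited barcodes. Cells were clustered jointly with scanpy 1.11.5 (2000 variable genes, 30 principal components, Leiden resolution 1), leaving out the 6 Ly6 genes, Xist, Y-linked and mitochondrial genes. The 27 clusters were named from markers of 13 classes; 3 stayed unnamed. UMI counts from transcript ends were summed by class and library and scaled to CPM, with no division by length and no correction for free RNA. Intervals are exact (Poisson, Clopper-Pearson or conditional binomial). PCR duplicates are collapsed by the UMIs; intervals and the limit of 3 counts cover counting error only. Antibody thresholds are crossings of a 2-component Gaussian mixture in control. The scripts were tested on simulated data. Of the 32285 gene identifiers, 32158 were found in GENCODE M21.

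The named genes were the 6 members, the 2 antibodies, the 3 genes most like each member (for Ly6c1 not reported here) and examples from the lists of the family, its anchor and its inducer. Lynx1, Ly6k and the other genes of the Ly6 region were named after their values were seen. The members, lists and rules were chosen with earlier results of these data known. Alternatives tried are given in the closing section. Amino acid sequences were not used here.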

Additional observations from a re-analysis of the deposited data

How the results depend on the processing

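The counts of called members depended on the settings except in the Mll3/4-labelled library, where 6 over all cells and 3 in the B-cell progenitor-like class stood under the alternatives run. Over all Mll3-labelled cells 1 became 0 with a mitochondrial limit of 5%, with at least 1500 genes and 3000 UMIs, and with a pseudocount of 5 CPM. Within Mll3-labelled classes 0 became 2 with no doublet removal and 2 at Leiden resolution 0.5. Over all Mll4-labelled cells 2 became 1 with TMM scaling, with the mean of each cell's CPM, with cells thinned to 2000 UMIs, with at least 1500 genes and 3000 UMIs, and with a pseudocount of 5 CPM. Within Mll4-labelled classes 5 became 9 with no doublet removal, 3 after thinning, 2 with at least 1500 genes and 3000 UMIs, and 2 with a minimum of 100 counts.

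Antibody-positive shares in this paragraph are over all classes together. The log2 ratio of the Sca1-positive share, 0.21 in the Mll3-labelled library, was -0.038 with a threshold fitted in each library, 0.57 with antibody totals scaled to control, and -0.067 with the threshold scaled by neutrophil-like cells, added after seeing the data. In the Mll4-labelled library -0.59 became -0.91, -0.81 and -0.99 under these 3, and -0.78 with at least 1500 genes and 3000 UMIs. In the Mll3/4-labelled library 1.60 became 0.44, 2.53 and 0.72. For Gr1 the Mll4-labelled 1.05 became 0.90 with a threshold per library, 0.96 with scaled totals and 0.92 with at least 1500 genes and 3000 UMIs. The Mll3/4-labelled -2.97 became 0.89 with a threshold per library, where the mixture split a library with few Gr1-high cells at 13.7 counts, and -2.61 with scaled totals. The cause of the other moves was not tested.

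Of 781 alternatives to 79 single-member ratios, 136 moved beyond the counting interval and 0 changed direction where called. In the B-cell progenitor-like class, the Mll3/4-labelled log2 ratio ran from 4.27 to 7.13 for Ly6c1, -5.18 to -3.26 for Ly6c2 and 1.07 to 1.89 for Ly6a, each called under all 12 settings. The Mll4-labelled basophil/mast-like Ly6a was called under 9 of 12, the B-cell progenitor-like Ly6a of that library under 8 of 11 and the erythroid progenitor-like Ly6g under 7 of 12. Leaving out cells positive for both hashtags, added after seeing the data, moved no count. With 143 Mll4-labelled B-cell progenitor-like cells, depth limits what their 0 counts can show. No paired analysis was possible because each group has 1 library.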

Other observations

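The 2 hashtags, whose meaning the labels do not give, split the Mll3/4-labelled B-cell progenitor-like cells into 3672 cells with the first alone and 2980 with the second alone. Ly6d was 117 CPM (114 to 121) in the former and 277 CPM (271 to 282) in the latter. Ly6c1 was 111 and 96.1 CPM, Ly6a 23.0 and 32.6 CPM, and Ly6e 915 and 1114 CPM. Ly6c1 was thus near equal in both while Ly6d differed most. In control the same class had Ly6d at 140 CPM in 197 cells with the first and 207 CPM in 272 cells with the second. In the Mll3-labelled library the order was the other way, 176 and 92.8 CPM. Ly6a in HSC/MPP-like cells of the Mll4-labelled library was 21.7 CPM with the first and 54.5 CPM with the second hashtag, against 53.2 and 60.9 CPM in control, and 46.3 and 66.6 CPM in the Mll3-labelled library, so cells of the second were higher in all 3.

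T/NK/innate lymphoid-like cells held Ly6a at 2 counts in 50 control cells, 6 in 31 Mll3-labelled, 11 in 48 Mll4-labelled and 8 in 19 Mll3/4-labelled cells. Their Ly6c2 was 130, 87.2, 170 and 241 CPM, each above the value of B-cell progenitor-like cells of the same library. The 6 basophil/mast-like cells of the Mll3/4-labelled library held 46 Ly6a counts, in 4 of them. Lynx1, next to Ly6d, was 20.5 CPM over all Mll3/4-labelled cells and at most 0.559 CPM over the other libraries. Cd177, the neutrophil antigen that is a distant relative, was 146, 97.9, 551 and 5.92 CPM over the cells of the 4 libraries, and Plaur, the urokinase receptor, 23.6, 10.5, 65.3 and 0.451 CPM. These totals, like those of Lynx1, mix level and cell makeup. In neutrophil-like cells of control, the Mll3- and the Mll4-labelled library Cd177 was 924, 918 and 1271 CPM. Plaur was 128, 78.8 and 145 CPM there, and neither gene was called in that class.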
